A study of Rattus norvegicus with 9 samples.

Results

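Voltage-gated sodium and calcium channel genes were followed in the frontal cortex of rats after maternal separation (MS) and electroacupuncture (EA). They were chosen by name, as genes typed as mRNA whose symbol is Scn, a number and a or b, or begins with Cacna, Cacnb or Cacng, and that held at least 90 reads summed over the 9 rats. Of 39 such names, 33 reached 90 reads, among 37209 genes in the whole table. The 6 names below it were Cacna1f with 52 reads, Cacna2d4 with 9, Cacng1 with 12, Scn7a with 70, Scn10a with 2 and Scn11a with 60. The member with the fewest reads was Cacng6, with 130. All 33 members passed the filter on low counts, of 16837 genes that did so. They comprise 15 pore-forming subunits and 18 auxiliary subunits.

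RNA depleted of rRNA was sequenced from male Wistar rats aged 14 weeks, with 3 rats in each of 3 groups. Control rats (A1, A2 and A6) stayed undisturbed with their mothers until weaning. MS rats (B3, B4 and B6) were kept from their mothers for 4 h a day between postnatal day 1 and postnatal day 21. MS+EA rats (C3, C10 and C16) had the same separation and received EA at the acupoints GV20 and GV29 between postnatal day 61 and postnatal day 81. Every rat had repeated anesthesia in that period, needles and current were given to the MS+EA rats only, and no sequenced group had sham EA or had EA without separation. Which litter or dam a rat came from is not given, so p-values measure the spread between these rats, which may include litter mates.

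A voltage-gated channel opens when the membrane depolarizes. Sodium channels start and carry the action potential, and calcium channels turn it into calcium entry, which releases transmitter at terminals and drives bursts, dendritic signals and gene expression elsewhere. In both families a large alpha subunit forms the pore, while smaller subunits set how many channels reach the membrane, where they sit and how they gate. Several of the proteins named as calcium channel gamma subunits act in cortex chiefly as partners of AMPA receptors, the fast glutamate receptors.

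Total counts lay between 16106381 and 19007907 in the Control and MS rats and between 12479905 and 14913736 in the MS+EA rats. Levels are given as CPM, counts scaled to a common library size normalized by TMM, a scaling that centers most genes. They depend on transcript length, so levels are compared between rats and not between genes. The marker lists of neurons, astrocytes, oligodendrocytes, microglia and endothelium held no gene at 0 reads in any rat. The 5 skeletal muscle markers summed to between 5.06 and 8.21 CPM a rat. Most of that was Acta1, at 4.72 to 7.34 CPM, while Ckm was at 0 reads in all rats but B3 and B4. The MS rat B4 stood apart in 2 hypothalamic transcripts, with 258 reads on Oxt and 503 on Avp. In these bulk samples, fewer cells of a type and less RNA per cell cannot be told apart.

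No member was called at an adjusted p under 0.05 with a fold change above 1.5 in any of the 3 comparisons. Over all genes tested, that call was made for 0.0238% in MS against Control, 0.0178% in MS+EA against MS and 1.37% in MS+EA against Control. At an unadjusted p under 0.05, 3 members lay higher and 0 lower in MS than in Control rats, against 7.06% and 3.55% of all genes. From MS to MS+EA rats, 2 were higher and 3 lower, against 6.01% and 6.42% of all genes. Between MS+EA and Control rats, 5 were higher and 7 lower, against 11.9% and 10.6% of all genes. Adjusted p values here and below are from edgeR's quasi-likelihood test with Benjamini-Hochberg adjustment over all genes tested. With DESeq2 or limma-trend in place of edgeR, 0 members passed both thresholds in each comparison.

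At an adjusted p under 0.05 with no demand on the fold, 2 members differed between MS+EA and Control rats, against 5.40% of all genes. With 1 higher, against 3.21% of all genes, and 1 lower, against 2.19%, both counts were close to what the whole table gave. Cacnb4, the beta-4 subunit that carries calcium channel pores to the membrane, rose by 31.4%. Cacna1i, the pore of the T-type channel Cav3.3, which opens at low voltage and supports burst firing, had a log2 fold change of -0.41 and thus fell. The 95% interval of the fold change lay inside 1.5-fold in either direction for 26 of the 33 members in MS against Control, 26 in MS+EA against MS and 24 in MS+EA against Control, compared with 60.3%, 59.4% and 55.6% of all genes. Of 14575 mRNA genes tested, 9772, 9709 and 9090 had such an interval. The width of an interval depends on the number of reads, and no share was computed over genes of like read number.

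**Figure D1:**
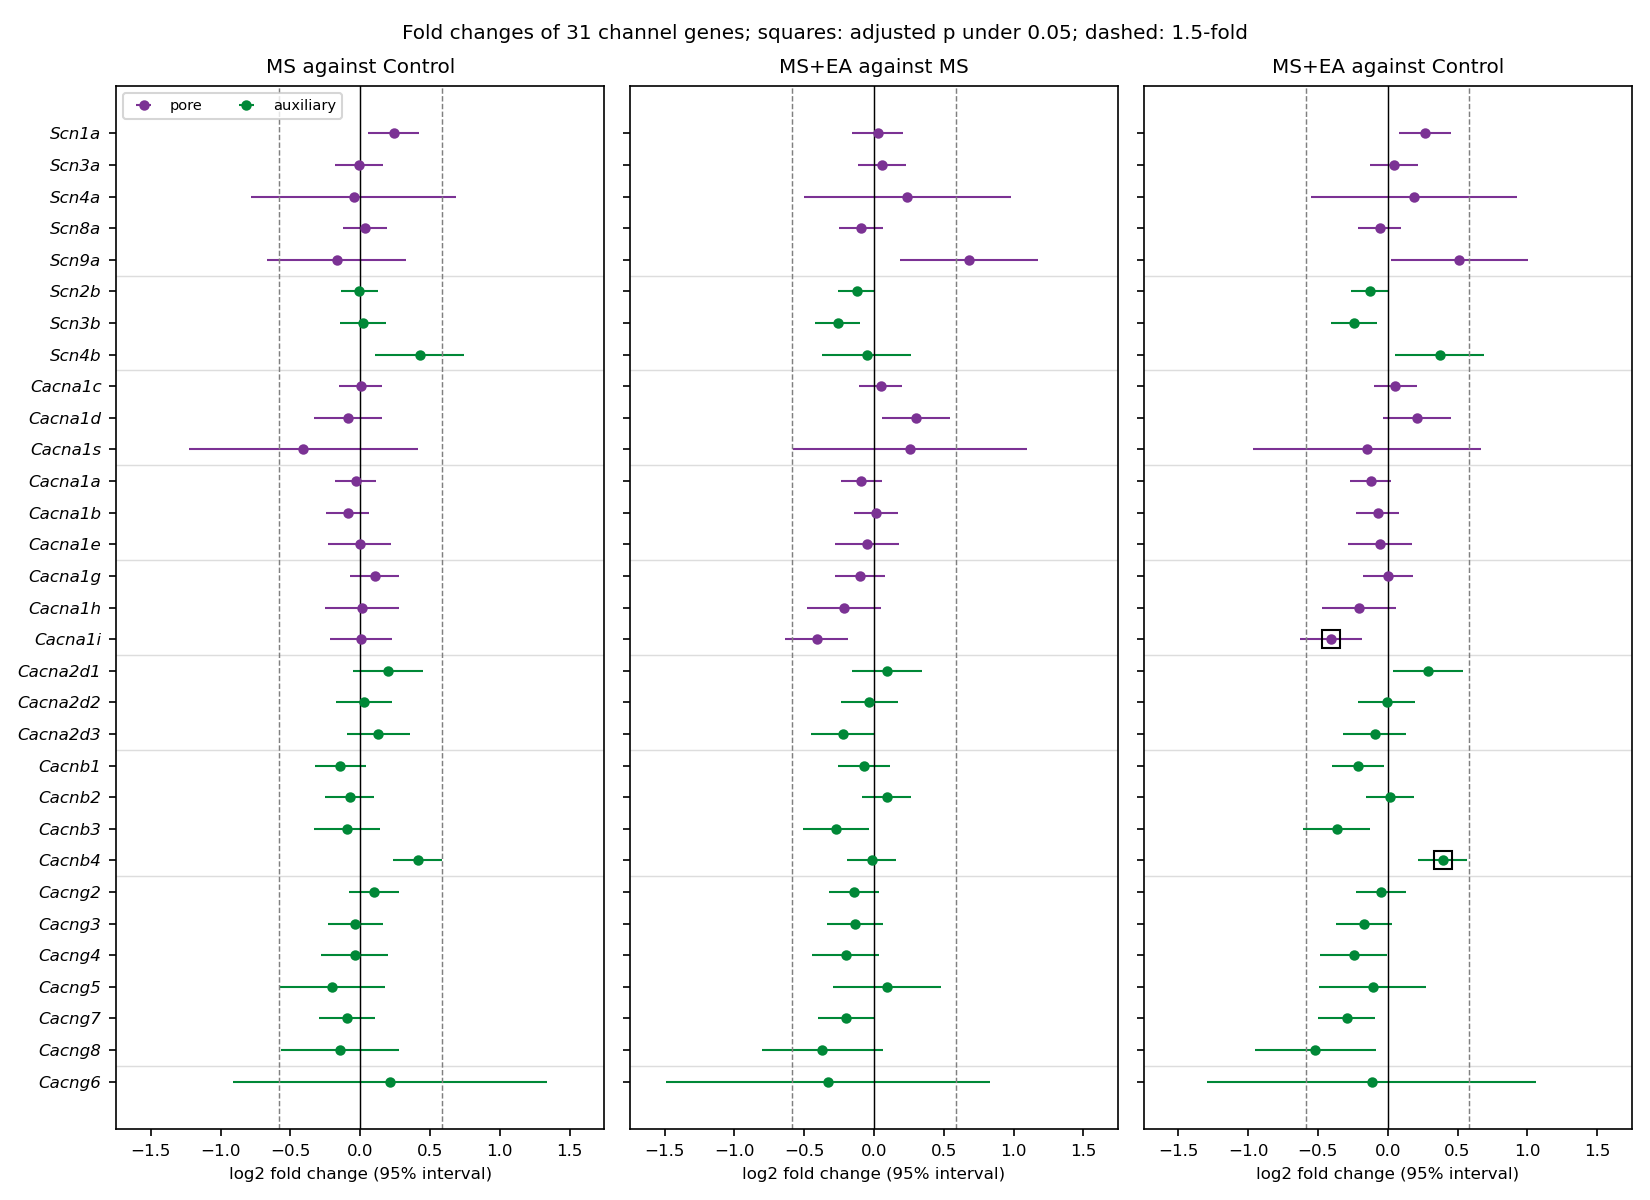
Log2 fold change (x axis) of 31 of the 33 channel genes in the 3 comparisons, with 95% intervals from the edgeR fit as bars, pore subunits in purple and auxiliary subunits in green. Dashed lines mark 1.5-fold, and squares mark the 2 values with an adjusted p under 0.05, Cacnb4 at 0.39 and Cacna1i at -0.41, both in MS+EA against Control.

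The beta subunits of the calcium channel bind the pore from inside the cell, and Cacnb4 is the one whose loss gives ataxia and seizures in mice. Cacnb4 stood at 369.7, 386 and 423 CPM in the Control rats A1, A2 and A6. In the same order as above, MS rats stood at 497, 526 and 545 CPM, and MS+EA rats at 495, 575 and 479 CPM. All 6 separated rats were above all 3 Control rats, and the MS and MS+EA rats overlapped. The log2 fold change of Cacnb4 was 0.41 in MS against Control (SE 0.0813, edgeR adjusted p = 0.108) and 0.39 in MS+EA against Control (SE 0.0814, edgeR adjusted p = 0.0207). Between MS+EA and MS it was -0.02 (SE 0.0812, edgeR adjusted p = 0.956). The call in MS+EA against Control was lost without the Control rat A1 (log2 fold change 0.35, edgeR adjusted p = 0.104) and without the MS+EA rat C10 (0.31, edgeR adjusted p = 0.0566). In MS against Control, 2 other settings passed an adjusted p under 0.05 for Cacnb4, the DESeq2 test and a filter of at least 1 count.

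The other beta subunits did not share this pattern. Cacnb3, the beta-3 subunit, stood at 358, 282 and 348 CPM in Control rats, 329, 297 and 298 CPM in MS rats, and 287, 263 and 215 CPM in MS+EA rats. The MS+EA rats were below all MS rats, while C3 overlapped the Control rat A2. Its log2 fold change was -0.37 in MS+EA against Control (SE 0.110, edgeR adjusted p = 0.0695), and -0.26 without C16. Cacnb1, best known as the beta subunit of skeletal muscle, had a log2 fold change of -0.21 in the same comparison (edgeR adjusted p = 0.162), and -0.14 without C16. For Cacnb2, the main beta subunit of heart, the values lay between -0.08 and 0.09 in the 3 comparisons.

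**Figure D2:**
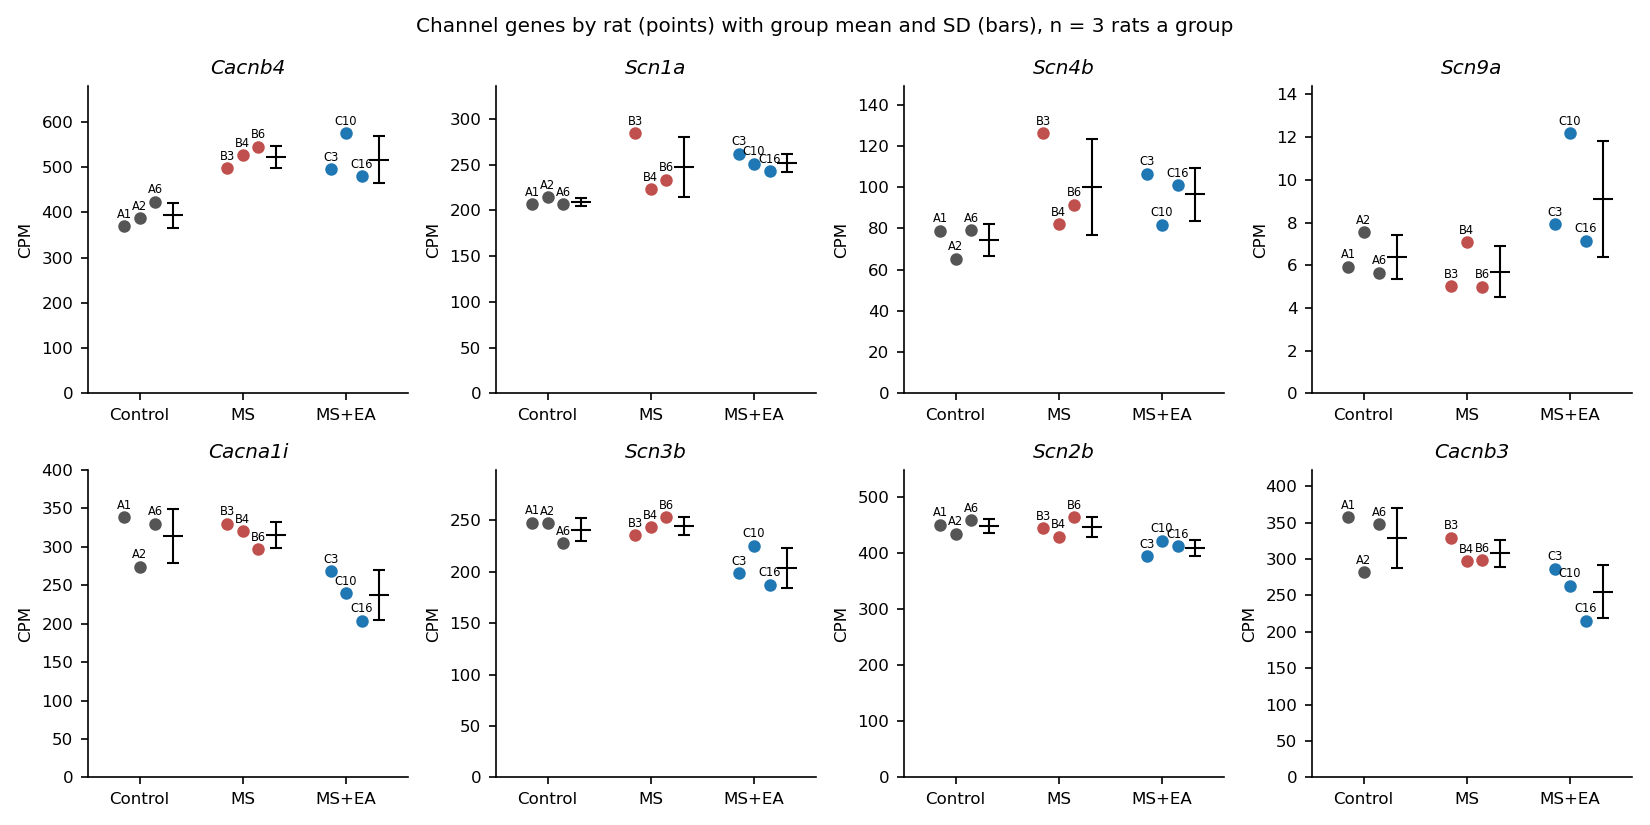
Level of 8 channel genes in CPM (y axis, from 0) for each of the 9 rats (points, labelled by rat) by group, with the group mean and SD (n = 3) as bars. In the upper row Cacnb4, Scn1a and Scn4b were higher in all 6 separated rats than in the Control rats, and Scn9a was highest in C10. In the lower row the MS+EA rats were the lowest for Cacna1i, Scn3b and Scn2b, and C3 overlapped A2 for Cacnb3.

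All 6 separated rats lay above all 3 Control rats for 2 further members, Scn1a and Scn4b, so that 3 of 33 members showed this order, against 5.28% of all genes. For 0 members did all 6 lie below, against 3.60% of all genes. Scn1a encodes Nav1.1, the sodium channel pore on which the firing of fast-spiking interneurons depends and whose loss causes Dravet epilepsy. Its level was 207, 214 and 207 CPM in Control rats, 285, 223 and 234 CPM in MS rats, and 262, 251 and 243 CPM in MS+EA rats. The Control rats lay close together, and the MS rat B3 was the highest of the 9. The log2 fold change was 0.27 in MS+EA against Control (SE 0.0845, edgeR adjusted p = 0.0842) and 0.24 in MS against Control (SE 0.0844, edgeR adjusted p = 0.314), and the latter was 0.12 without B3.

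Scn4b, a beta subunit linked to the resurgent sodium current of fast-firing neurons, stood at 78.9, 65.3 and 79.1 CPM in Control rats, 126, 82.1 and 91.5 CPM in MS rats, and 106, 81.8 and 101 CPM in MS+EA rats. B3 was again the highest rat, while B4 and C10 lay only just above the Control rats. For Scn4b the log2 fold change was 0.43 in MS against Control (SE 0.147, edgeR adjusted p = 0.299) and 0.22 without B3. It was 0.37 in MS+EA against Control (SE 0.147, edgeR adjusted p = 0.156).

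A list of thalamic and hypothalamic markers had, like Cacnb4, Scn1a and Scn4b, a level in all 6 separated rats above that of all 3 Control rats. Its 9 genes summed to between 171 and 174 CPM in Control rats, 187 and 263 CPM in MS rats, and 199 and 207 CPM in MS+EA rats. Most of that sum was Rora, at 142 to 144 CPM in Control, 154 to 174 CPM in MS and 159.7 to 177 CPM in MS+EA rats. Rora is also expressed in cortex. Prkcd, a kinase enriched in thalamus, stood at 14.8 to 18.8 CPM in Control, 19.7 to 30.0 CPM in MS and 18.7 to 26.5 CPM in MS+EA rats, so that all MS rats were above the Control rats while the MS+EA rats overlapped them. Its log2 fold change was 0.52 in MS against Control (edgeR adjusted p = 0.273) and 0.42 in MS+EA against Control (edgeR adjusted p = 0.159). The thalamic marker Tcf7l2 overlapped between groups, at 9.33 to 9.96 CPM in Control, 8.98 to 12.8 CPM in MS and 9.65 to 11.6 CPM in MS+EA rats. The hypothalamic marker Hcrt had 23 reads in A1 and at most 2 in every other rat, 4 of them at 0, while Oxt and Avp were highest in the MS rat B4. All 6 tested genes of the list lay above 0 in MS against Control and 3 of 6 in MS+EA against Control, with 0 at an adjusted p under 0.05 and, at an unadjusted p under 0.05, 4 and 2 higher, against 7.06% and 11.9% of all genes. In MS against Control without B4, the log2 fold changes were 0.41 for Cacnb4, 0.31 for Scn1a and 0.55 for Scn4b. In the same order they were 0.44, 0.12 and 0.22 without B3, and 0.38, 0.28 and 0.49 without B6. Endothelial markers were also higher in MS than in Control rats. The 5 genes summed to 121 to 137 CPM in Control, 153 to 177 CPM in MS and 131 to 161 CPM in MS+EA rats, and only the MS rats lay wholly above the Control rats. All 5 were above 0 in MS against Control, with a median log2 fold change of 0.27, 0 at an adjusted p under 0.05 (edgeR) and 2 higher at an unadjusted p under 0.05, against 7.06% of all genes, and 4 of 5 were above 0 in MS+EA against Control. Tek, a receptor of endothelial cells, stood at 35.1 to 40.2 CPM in Control, 48.3 to 60.7 CPM in MS and 41.7 to 52.2 CPM in MS+EA rats, with all 6 separated rats above the Control rats. The list of markers of parvalbumin interneurons, cells rich in Scn1a, overlapped between Control rats, at 314 to 323 CPM, and MS rats, at 303 to 328 CPM. In MS+EA rats it lay at 285 to 311 CPM, below all Control rats. All 5 of its genes were below 0 in MS+EA against Control, as were 49.1% of all genes, with a median log2 fold change of -0.17. At an unadjusted p under 0.05 (edgeR), 0 of them were lower, against 10.6% of all genes. The part of these cells or regions in the channel results was not tested.

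The other sodium channel pores described here differed little or had few reads. Scn8a, which encodes the axonal pore Nav1.6, stood at 598 ± 8.06 CPM (SD, n = 3) in Control, 612 ± 35.6 CPM in MS and 574 ± 46.6 CPM in MS+EA rats. Scn3a, the pore most used before birth, had log2 fold changes between -0.01 and 0.06 in the 3 comparisons. Scn9a encodes Nav1.7, known from pain-sensing neurons and from hypothalamus, and was counted at 83 to 182 reads a rat. Its level was 5.94, 7.56 and 5.66 CPM in Control rats, 5.02, 7.07 and 4.99 CPM in MS rats, and 7.91, 12.2 and 7.15 CPM in MS+EA rats. All MS+EA rats were above all MS rats, and C10 was far the highest. Its log2 fold change of 0.68 in MS+EA against MS (SE 0.228, edgeR adjusted p = 0.286) was the only value of a member beyond 1.5-fold in any comparison, and it was 0.41 without C10. Scn4a, the pore of skeletal muscle, was counted at 20 to 50 reads a rat, and its interval reached beyond 1.5-fold in every comparison.

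The symbol Scn2a1, an older name of Scn2a, falls outside the naming rule and was chosen after its values were seen, because it is the Nav1.2 pore of excitatory cortical neurons. It stood at 984 ± 51.9 CPM (SD, n = 3) in Control, 1029 ± 90.8 CPM in MS and 1098 ± 182 CPM in MS+EA rats. The log2 fold change was 0.16 in MS+EA against Control (SE 0.108, edgeR adjusted p = 0.413).

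The sodium channel beta subunits are single-span proteins that also act as adhesion molecules. Scn2b and Scn4b lie side by side on chromosome 8 of the rat, with no protein-coding gene between them, and had different patterns over the groups. Their promoters, 250 bases up to the annotated start in RefSeq (GRCr8), are printed to show how unlike they are in base composition. That of Scn2b is chr8:54322133-54322382, plus strand, with 38.8% G and C, and that of Scn4b is chr8:54343623-54343872, plus strand, with 71.6%.
Scn2b: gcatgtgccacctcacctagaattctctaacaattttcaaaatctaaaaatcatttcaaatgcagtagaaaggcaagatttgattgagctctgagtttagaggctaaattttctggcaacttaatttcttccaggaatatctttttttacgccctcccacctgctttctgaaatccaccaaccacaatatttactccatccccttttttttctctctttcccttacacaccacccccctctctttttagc
Scn4b: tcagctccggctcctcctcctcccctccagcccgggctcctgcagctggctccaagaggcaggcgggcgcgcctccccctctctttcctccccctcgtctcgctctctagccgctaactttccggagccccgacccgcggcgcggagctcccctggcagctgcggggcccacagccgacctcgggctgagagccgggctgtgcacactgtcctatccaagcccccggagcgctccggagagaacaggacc
Neither window holds any of the 4 motifs searched on both strands, which were the E-box CACGTG, the cAMP response element TGACGTCA, the Sp1 core GGGCGG and the TATA box TATAAA.

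Scn2b stood at 451, 435 and 458 CPM in Control rats, 445, 429 and 465 CPM in MS rats, and 394, 422 and 412 CPM in MS+EA rats. Each MS+EA rat was below each of the other 6 rats, by a small margin for C10. Scn2b had the lowest spread between rats of a group of all members, with a pooled SD of 0.0494 on the log2 scale, and its log2 fold change in MS+EA against Control was -0.13 (SE 0.0609, edgeR adjusted p = 0.234).

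Scn3b, a beta subunit that binds the pore without a covalent bond, stood at 248, 247 and 228 CPM in Control rats, 236, 244 and 253 CPM in MS rats, and 199, 226 and 188 CPM in MS+EA rats. Its MS+EA rats were again below all others, with C10 just under A6. For Scn3b the log2 fold change was -0.26 in MS+EA against MS (SE 0.0754, edgeR adjusted p = 0.243) and -0.24 in MS+EA against Control (SE 0.0754, edgeR adjusted p = 0.0796). Without C10 the latter was -0.32 (edgeR adjusted p = 0.0417).

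The calcium channel pores fall into high-voltage L-type channels, which couple activity to transcription and dendritic signals, the presynaptic P/Q-, N- and R-type channels, and low-voltage T-type channels. The T-type pore Cacna1i stood at 339, 274 and 330.3 CPM in Control rats, 330.0, 321 and 297 CPM in MS rats, and 269, 239.7 and 204 CPM in MS+EA rats. The 3 MS+EA rats were the lowest of the 9, with C3 close to A2. For Cacna1i the log2 fold change was -0.41 both in MS+EA against MS (SE 0.103, edgeR adjusted p = 0.207) and in MS+EA against Control (SE 0.103, edgeR adjusted p = 0.0416), and 0.01 in MS against Control (SE 0.103, edgeR adjusted p = 0.992).

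The call of Cacna1i was lost when any of 4 rats was left out. The edgeR adjusted p in MS+EA against Control was 0.169 without A1, 0.138 without A6, 0.0839 without C10 and 0.127 without C16, and the log2 fold change lay between -0.50 and -0.31 over all settings. It was also lost with total counts as the scaling (edgeR adjusted p = 0.0584) and with only the 6 rats compared in the fit (edgeR adjusted p = 0.0596). Together with Scn2b and Scn3b, Cacna1i made 3 of 33 members with all MS+EA rats below every other rat, against 5.89% of all genes. For 0 members were all MS+EA rats above every other rat, against 4.06% of all genes.

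The other T-type pores were nearer to 0. Cacna1h (Cav3.2) had a log2 fold change of -0.22 in MS+EA against MS and -0.21 in MS+EA against Control, with edgeR adjusted p values of 0.486 and 0.345. C16 was its lowest rat, at 58.3 CPM against 74.1 to 95.5 CPM in the other 8, and without it the log2 fold changes were -0.08 and -0.07. Cacna1g (Cav3.1) had values between -0.10 and 0.10.

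The L-type pore Cacna1d (Cav1.3), which opens at lower voltage than Cacna1c, stood at 145, 189.9 and 192 CPM in Control rats, 188, 146 and 162 CPM in MS rats, and 208, 213 and 189 CPM in MS+EA rats. Each MS+EA rat was above all MS rats, C16 by a small margin, and C16 overlapped the Control rats. The log2 fold change in MS+EA against MS was 0.30 (SE 0.113, edgeR adjusted p = 0.321). Cacna1c (Cav1.2) had values between 0.00 and 0.05, and Cacna1s, the pore of skeletal muscle, rested on 13 to 39 reads a rat. The 3 presynaptic pores Cacna1a, Cacna1b and Cacna1e had log2 fold changes between -0.12 and 0.02 in the 3 comparisons. Cacna1e, the R-type pore, ranged from 821 CPM in C16 to 1148 CPM in C10, the lowest and the highest rat being in the same group.

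**Figure D3:**
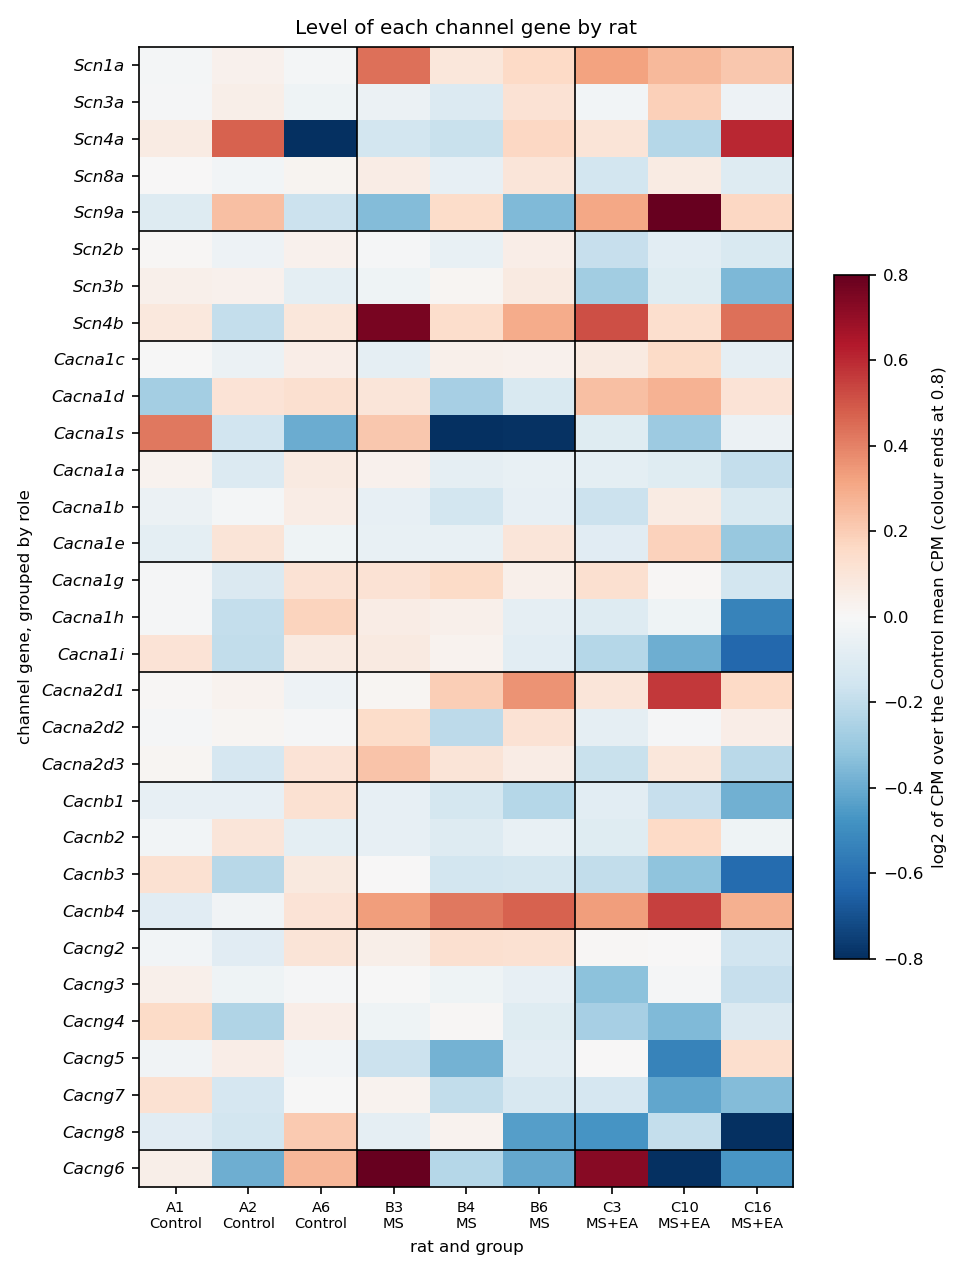
Level of each of 31 of the 33 channel genes (rows, grouped by role with lines between roles) in each of the 9 rats (columns), as the log2 of its CPM over the mean CPM of the Control rats, with colours ending at 0.8. Cacnb4 is red in all 6 separated rats. Cacna1i is lowest in the 3 MS+EA rats, with C3 close to the Control rat A2. The strong colours of Scn4a, Cacna1s and Cacng6 belong to members with few reads.

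The alpha2delta subunits are extracellular proteins that place calcium channels at synapses, and Cacna2d1 and Cacna2d2 are the targets of gabapentin. Cacna2d1 stood at 559.7, 565 and 541 CPM in Control rats, 561, 637 and 713 CPM in MS rats, and 594, 821 and 619 CPM in MS+EA rats. All MS+EA rats were above all Control rats and C10 was the highest, while B3 overlapped the Control rats. For Cacna2d1 the log2 fold change in MS+EA against Control was 0.29 (SE 0.116, edgeR adjusted p = 0.162), and it was 0.13 without C10. Cacna2d2 had values between -0.03 and 0.03, and Cacna2d3 had values between -0.22 and 0.13.

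Of the 7 gamma members, 6 are partners of AMPA receptors, which carry the receptor to the synapse and slow its closing, and the seventh, Cacng6, is a muscle type counted at 5 to 28 reads a rat. In MS+EA against Control all 6 AMPA receptor partners had a log2 fold change below 0, as had 49.1% of all genes, with values from -0.52 for Cacng8 to -0.05 for Cacng2 and a median of -0.21. The shared sign depended on single rats, with Cacng5 at 0.07 without C10 and Cacng2 at 0.01 without A6. None of the 6 passed an adjusted p under 0.05 in the edgeR fit, and 3 had an unadjusted p under 0.05, all lower, against 10.6% of all genes. Their summed level was 261, 229 and 255 CPM in Control rats, 249, 235 and 235 CPM in MS rats, and 222, 208 and 206 CPM in MS+EA rats. The MS+EA rats were below all other rats, C3 by a small margin.

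Cacng7, another of these partners, stood at 125, 105 and 115 CPM in Control rats, 117, 100.3 and 105 CPM in MS rats, and 104, 86.1 and 90.3 CPM in MS+EA rats. Its MS+EA rats were below all Control rats, with C3 close to A2. The log2 fold change in MS+EA against Control was -0.30 (SE 0.0929, edgeR adjusted p = 0.0816). Cacng8, which is prominent in hippocampus, had a log2 fold change of -0.52 (SE 0.200, edgeR adjusted p = 0.145) and stood at 7.0 CPM in C16 against 10.3 to 16.6 CPM in the other rats. The fold change was -0.32 without C16 and -0.72 without C10. Cacng2, or stargazin, whose loss gives the stargazer mouse its ataxia and absence seizures, had values between -0.15 and 0.10 in the 3 comparisons.

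Set side by side, the pore members had a median log2 fold change of -0.01 in MS against Control, 0.03 in MS+EA against MS and 0.00 in MS+EA against Control. The auxiliary members had medians of 0.01, -0.14 and -0.11, and those of all genes were -0.0014, 0.00059 and 0.0055. Of 18 auxiliary members, 15 lay below 0 in MS+EA against MS, compared with 6 of 15 pore members and 49.9% of all genes. There were 13 of 18 auxiliary members and 7 of 15 pore members below 0 in MS+EA against Control. Over all alternatives and all rats left out, the auxiliary median in MS+EA against MS stayed between -0.16 and -0.10. These comparisons share the MS+EA rats and no test of the difference between the roles was made.

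The log2 ratio of summed pore CPM to summed auxiliary CPM was 0.34, 0.44 and 0.39 in Control rats, 0.31, 0.26 and 0.28 in MS rats, and 0.33, 0.33 and 0.26 in MS+EA rats. All 6 separated rats were below the 3 Control rats, but C3 and C10, both at 0.333, were only just below A1, at 0.337. Without Cacnb4 the groups overlapped, with 0.54, 0.67 and 0.62 in Control rats, 0.57, 0.55 and 0.56 in MS rats, and 0.61, 0.63 and 0.54 in MS+EA rats.

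**Figure D4:**
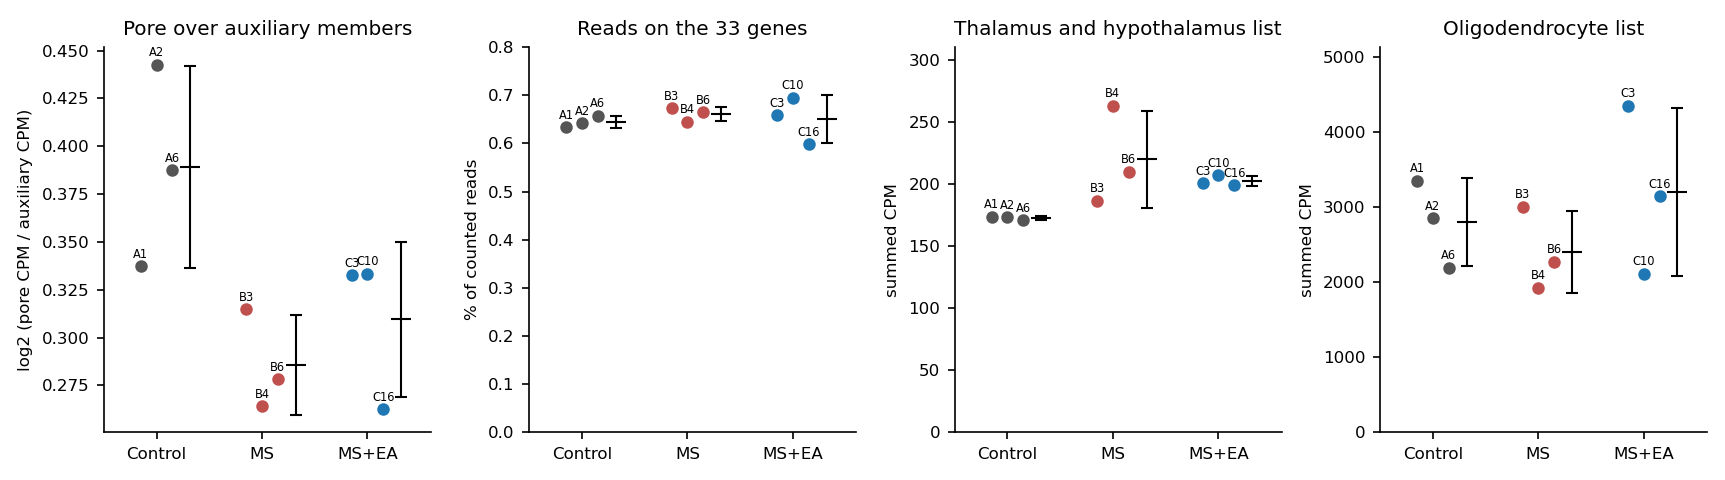
Values for each of the 9 rats (points, labelled by rat) with group mean and SD (bars, n = 3), namely the log2 ratio of pore to auxiliary CPM (an axis that does not start at 0), the percentage of counted reads on the 33 channel genes, and the summed CPM of the thalamus and hypothalamus list and of the oligodendrocyte list. The ratio is lower in the 6 separated rats than in the Control rats, for C3 and C10 by a small margin. The percentage overlaps between groups, and the thalamus and hypothalamus list is lowest in the Control rats.

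The groups compared did not overlap for 6 members in MS against Control, against 17.6% of all genes. There were 9 such members in MS+EA against MS, against 17.9%, and 10 in MS+EA against Control, against 25.9%. Together the 33 members held between 0.598% of the counted reads, in C16, and 0.695%, in C10. C16 had the lowest CPM of the 9 rats for 13 of the 33 members, or 39.4%, compared with 13.4% of all genes. C10 had the highest CPM for 9 members, or 27.3%, compared with 16.7% of all genes. The median pooled SD of the members between rats of a group was 0.129 on the log2 scale, against 0.170 for all genes. Of the 33 members, 28 held at least 1000 reads over the 9 rats, and genes of like read number were not set beside them.

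Some further measures were described beside the channel genes, and in the share of reads on non-coding genes the MS+EA rats lay above all others. That share was 1.62% to 1.81% in Control, 1.70% to 1.85% in MS and 1.90% to 2.13% in MS+EA rats. Among 11 neuron markers, 2 fell between Control and MS+EA rats at an adjusted p under 0.05 (edgeR), against 2.19% of all genes, namely the vesicular glutamate transporter Slc17a7 (log2 fold change -0.30, adjusted p = 0.0207) and the tubulin Tubb3 (-0.32, adjusted p = 0.0252). In that comparison 7 of the 11 lay above 0 and 4 below, with a median log2 fold change of 0.05. At an unadjusted p under 0.05 (edgeR), 1 lay higher and 2 lower, against 11.9% and 10.6% of all genes. The summed level of the 11 overlapped between groups, at 9682 to 10098 CPM in Control and 9125 to 10380.3 CPM in MS+EA rats. All 8 oligodendrocyte markers were above 0 in MS+EA against MS, where 49.9% of all genes were below 0. Of the 8, 0 passed an adjusted p under 0.05 (edgeR). At an unadjusted p under 0.05 (edgeR), 1 was higher, against 6.01% of all genes. The groups overlapped in the sum of the 8 markers. The part of these measures in the channel results was not tested.

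Of 37 listed partner genes that work with these channels, 34 were tested. The list holds axon initial segment proteins, intracellular FGFs, the leak channel NALCN with its subunits, calcium channel regulators and intracellular calcium release channels. Only Cntnap2, an adhesion protein of the axon that clusters potassium channels, passed an adjusted p under 0.05 in the edgeR fit, in MS+EA against Control. Of all genes tested, 5.40% passed in that comparison in either direction, and 2.19% passed as lower. Cntnap2 stood at 59.9, 55.6 and 54.3 CPM in Control rats, 50.7, 52.8 and 53.8 CPM in MS rats, and 42.9, 48.2 and 43.6 CPM in MS+EA rats. The MS+EA rats were below all others, and its log2 fold change of -0.33 (SE 0.0780, edgeR adjusted p = 0.0322) was a fall of less than 1.5-fold. Of the other 8 axon initial segment genes, Ank3, which holds sodium channels in place, among them, 0 passed the test.

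Calm2, one of the calmodulin genes whose product binds sodium and calcium channel pores, had 344, 342 and 342 CPM in Control rats, 401, 420.0 and 405 CPM in MS rats, and 327, 371 and 315 CPM in MS+EA rats. The MS rats were above all others. For Calm2 the log2 fold change was 0.25 in MS against Control (SE 0.0686, edgeR adjusted p = 0.186) and -0.27 in MS+EA against MS (SE 0.0687, edgeR adjusted p = 0.207). Rims2, a scaffold of presynaptic calcium channels, had a log2 fold change of 0.30 in MS+EA against Control (SE 0.102, edgeR adjusted p = 0.105).

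Promoters of 22 of the 33 members could be read from RefSeq (GRCr8), 25 windows of 250 bases in all, and those of Cacnb4, Cacna1i, Scn1a and Scn3b were not among them. The median content of G and C was 64.8% in these windows, compared with 51.2% over 33469 promoters. The Sp1 core GGGCGG was found in 13 of 25 windows, or 52%, against 30.5% of all promoters, and the TATA box TATAAA in 2, or 8%, against 12.9%. The E-box CACGTG and the cAMP response element TGACGTCA were found in 0 of 25, against 5.59% and 1.59% of all promoters. That of Cacnb3, at chr7:131666301-131666550 on the plus strand with 76.4% G and C, is printed as an example with 3 matches to the Sp1 core, which the capitals mark on either strand.
Cacnb3: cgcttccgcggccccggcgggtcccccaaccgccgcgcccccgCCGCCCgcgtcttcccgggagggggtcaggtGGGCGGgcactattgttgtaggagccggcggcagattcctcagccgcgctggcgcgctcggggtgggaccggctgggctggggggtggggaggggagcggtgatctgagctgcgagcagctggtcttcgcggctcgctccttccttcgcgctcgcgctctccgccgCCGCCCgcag
A match of letters is a description and does not show that a factor binds there.

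Some members share a place in the genome with related or overlapping genes, which bears on how reads were assigned. In the RefSeq annotation Scn3a neighbours Scn2a and Scn1a neighbours Scn9a on chromosome 3, Cacng6, Cacng8 and Cacng7 follow each other on chromosome 1, and Cacng4 and Cacng5 are neighbours on chromosome 10. For 7 members a counted gene overlaps the member, as Tuba1c does Cacnb3 and Rpl19 does Cacnb1. The strand setting of the counting and the treatment of reads with several locations are not given in the sources used here. How reads from overlapping stretches, or from sequence that related genes share, were assigned is thus not known.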

How the data were processed

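Gene-level read counts of the frontal cortex of 9 rats were analysed, with the group of each rat taken from the sample labels. Reads had been quality-filtered by the authors with FastQC and aligned by HISAT2 2.0.4 to the build Rnor_6.0 (per the submitters' processing notes), and they deposited whole-number counts without normalization, and the counting program is not given in the sources used here. The longest transcript of a gene is stated for expression values, and whether the deposited counts rest on it is not stated.

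Counts were analysed with edgeR 4.0.16 in R 4.3.3, using TMM factors, filterByExpr with a minimum count of 10, and a single quasi-likelihood fit of the 3 group means to all 9 rats. P-values were adjusted over 16837 genes. The study's thresholds were used, namely 0.05 for the adjusted p and 1.5 for the fold change. Intervals are 95% intervals from the same fit. Total counts ranged from 12479905 to 19007907, and the biological coefficient of variation was 12.7%. With 3 rats against 3, an exact permutation test cannot give a p under 0.1, so none was used.

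Full statistics were given for members called or with an unadjusted p under 0.01, and others by range. The rule also named the member with the highest level per length in each role, which could not be applied because no transcript lengths were at hand. Partner genes were named if called, or among the 3 of a list with the smallest p. For 2 members, included in all counts and sums, single values are not reported here. Members and lists were chosen with earlier results of these data known. Scn4b, Scn2b, Scn9a, Cacna1d, Cacna2d1, Cacng8, Scn2a1, Prkcd and Tek were described rat by rat or singled out after their values were seen.

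Alternatives were DESeq2 1.42.0 (also its size factors in edgeR), limma-trend (limma 3.58.1), total counts, bias-adjusted deviances, filters of at least 1 count or 10 counts in every rat, no threshold on the fold, a fit to only the 6 rats of a comparison, and the omission of 1 rat at a time. An adjusted p alone under each of these was added after seeing the data. The model was tested on simulated counts. Promoters were read and figures drawn with Python 3.11.15 and matplotlib 3.10.9.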

Additional observations from a re-analysis of the deposited data

How the results depend on the processing

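With both thresholds, 0 members were called in each comparison under every alternative run and with each rat left out. Without the fold change threshold 2 members were called in MS+EA against Control, Cacnb4 and Cacna1i. Combined with the other alternatives, an adjusted p alone called between 0 members, without A1, and 6, with DESeq2 (Cacna1i, Cacnb3, Cacnb4, Cacng7, Scn1a and Scn3b). A filter of at least 1 count called 5, and 1 was called without A6, C10 or C16 and with total counts, 3 without A2 and 4 without C3. Over all genes this call went from 910 genes to 1557 with DESeq2, 1451 with at least 1 count, 112 without A1, 297 without A6, 334 without C10 and 398 without C16. In MS against Control an adjusted p alone called 0 members in the main analysis, 1 with DESeq2 (Cacnb4) and 2 with at least 1 count (Cacnb4 and Scn4b), while the count over all genes went from 4 to 198 and 335. In MS+EA against MS each of these 2 settings called 1 member, Cacna1i, while the count over all genes went from 3 to 150 and 126. The causes were not tested. Of 1383 alternative values of the members' fold changes, 26 were marked as moved by more than the standard error. That mark was not given to the 20 member comparisons with an unadjusted p under 0.05. Some of their values moved that far too. In MS against Control without B3, Scn1a went from 0.24 to 0.12 and Scn4b from 0.43 to 0.22. A sign change occurred in 90 values of 38 member comparisons, and in 0 of 280 values of the 20 member comparisons with an unadjusted p under 0.05. Those 20 were picked by their p in the same data, which made a sign change unlikely beforehand. Total counts shifted the median of all genes by at most 0.04 on the log2 scale. The pore and auxiliary medians moved by less than the spread between rats. A correction for coding length was not run, since no table of lengths was at hand. No paired analysis was possible because no rat belongs to more than 1 group and the replicate names differ. Members with few reads, Cacng6, Cacna1s and Scn4a among them, had 95% intervals that reached beyond 1.5-fold in every comparison.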
